A study of Homo sapiens with 6 samples.

Results

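The apelin receptor gene APLNR and the apelin gene APLN were followed in human embryonic stem cells and in mesodermal progenitors made from them. The members are the 3 probe sets that the array's annotation assigns to either gene alone, of 54675 probe sets in all, and the 2 genes among 19775 genes with a probe set of their own. They were chosen on their levels in these same arrays, where APLNR was already known to have the largest increase of all genes, so their values are given as a description without a test. The progenitors, on 3 arrays, were made from H9, a widely used embryonic stem cell line. They had been induced towards mesoderm by BMP4, VEGF, FGF2 and activin A, in Stemline II medium, and were sorted on day 3.5 as cells without CD326 (EPCAM) but with CD56 (NCAM1). They were set against 3 arrays of undifferentiated H9 cells (hESC). Unsorted day 3.5 cells were not analysed here, so the sort and the differentiation cannot be told apart. Nothing in the labels ties the arrays of a group to separate cultures.

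APLNR, also called APJ, is a G protein-coupled receptor that mainly couples to inhibitory G proteins. It has a pair of peptide ligands, apelin (APLN) and elabela or toddler (APELA). In zebrafish embryos the receptor and APELA guide the movement of mesendoderm cells during gastrulation and are needed for the heart to form. In later embryos and adults apelin is best known from blood vessels, where sprouting endothelial cells make it. Human embryonic stem cells secrete elabela, which has been described as supporting their self-renewal.

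Upstream sequence of the ligand genes is shown because these genes of 1 receptor behaved differently in the arrays, as given further on. The sequences are from RefSeq on GRCh38.p14 and hold the 250 bases before each gene's start. The APLN stretch lies at chrX:129654957-129655206 on the minus strand and the APELA stretch at chr4:164876928-164877177 on the plus strand. Capitals mark matches to any of 3 motifs, each searched on both strands. The core of the sites for hypoxia-inducible factors was written ACGTG. The site bound by blood and mesoderm factors of the zinc finger type was written TGATAA. Part of the site of T-box factors was written TCACACC.
APLN: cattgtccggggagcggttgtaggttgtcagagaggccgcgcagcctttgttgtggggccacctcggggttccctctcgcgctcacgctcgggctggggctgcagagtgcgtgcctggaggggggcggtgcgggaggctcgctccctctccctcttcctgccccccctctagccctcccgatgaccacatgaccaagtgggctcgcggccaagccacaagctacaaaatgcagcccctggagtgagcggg
APELA: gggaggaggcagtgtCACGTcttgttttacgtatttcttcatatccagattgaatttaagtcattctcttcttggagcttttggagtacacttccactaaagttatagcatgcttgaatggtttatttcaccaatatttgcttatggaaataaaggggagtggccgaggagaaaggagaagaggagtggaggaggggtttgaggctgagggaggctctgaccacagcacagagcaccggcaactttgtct
The APLN stretch was rich in G and C, at 67.6% with 17 CG pairs, and that of APELA was poor, at 45.2% with 4 CG pairs. The median of 35116 such stretches was 58.0% with 11 pairs. The only match was 1 ACGTG on the minus strand of APELA, which begins 235 bases before the start. ACGTG was found in 18.5% of all stretches, TGATAA in 6.66% and TCACACC in 2.76%.

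Sort markers and most marker lists matched the labels. NCAM1 had a mean deposited intensity of 1209 in the progenitors and 98.4 in hESC, and EPCAM one of 636 in the progenitors and 3348 in hESC. Of 10 lateral mesoderm markers 10 rose, of 10 streak markers 8 rose and 1 fell, and of 8 measured pluripotency markers 8 fell (limma, adjusted p under 0.05). Among all genes 47.9% were called, 26.7% higher and 21.2% lower. In 57.3% of genes the groups did not overlap, 32.0% with the progenitors higher and 25.3% with them lower. Increases of at least 2-fold were seen in 9.43% of genes and such decreases in 7.23%. Markers of other lineages were called in part. Of these, 3 of 9 blood markers rose and 2 fell, 4 of 8 endoderm markers rose and 1 fell, 1 of 10 neuroectoderm markers rose and 2 fell, and 4 of 8 smooth muscle markers rose and 1 fell. Among those that rose were the blood factor LMO2 at 3.97 and the endoderm gene CER1 at 4.58, which the streak also expresses. The blood marker SPN fell by 1.82, but did not pass with the mean of its probe sets. MAP2 and DCX were the neuroectoderm markers that fell. Neither passed when progenitor array 2 or 3, or any single hESC array, was left out. The part of such cells in the results below was not tested. Median intensities were 30.98 to 31.2 on progenitor arrays and 33.1 to 36.1 on hESC arrays. Intensities are on the authors' linear scale, and levels and changes called log2 are on the scale of quantile-normalized log2(intensity + 16).

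APLNR was near the top of the progenitor arrays and well below the median of the hESC arrays. Its only probe set had intensities of 5248, 5312 and 5381 on progenitor arrays 1 to 3, against 15.6, 12.6 and 8.18 on hESC arrays 1 to 3. The groups did not overlap, and the progenitor arrays were nearly equal, with the highest 1.03 times the lowest. The mean intensity was 5314 ± 66.7 in the progenitors and 12.1 ± 3.73 in hESC (SD, n = 3 each), a ratio of 438. On the log2 scale the level was 12.39 ± 0.01 in the progenitors and 4.77 ± 0.18 in hESC, a difference of 7.61 (SE 0.10). In bulk samples fewer cells with a transcript and less of it per cell cannot be told apart.

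The place of these values on each array shows how wide that step was. On the progenitor arrays 334 to 346 probe sets were brighter than APLNR, so that it exceeded 99.4% of all probe sets on each. On the hESC arrays it exceeded 34.0%, 28.7% and 21.75% of them. A probe set's brightness also depends on its probes, so a rank places a value on its array and does not set transcripts of different genes against each other. No detection calls were used here, and at 0.247 to 0.444 times the array median the hESC values cannot be told from background. The ratio of 438 therefore depends on what the authors' processing left in the dim values. At a pseudocount of 16 the increase was the largest of 19775 genes, at 1 it was the 4th largest, at 8.78, and at 64 the 2nd largest, at 6.16.

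**Figure D1:**
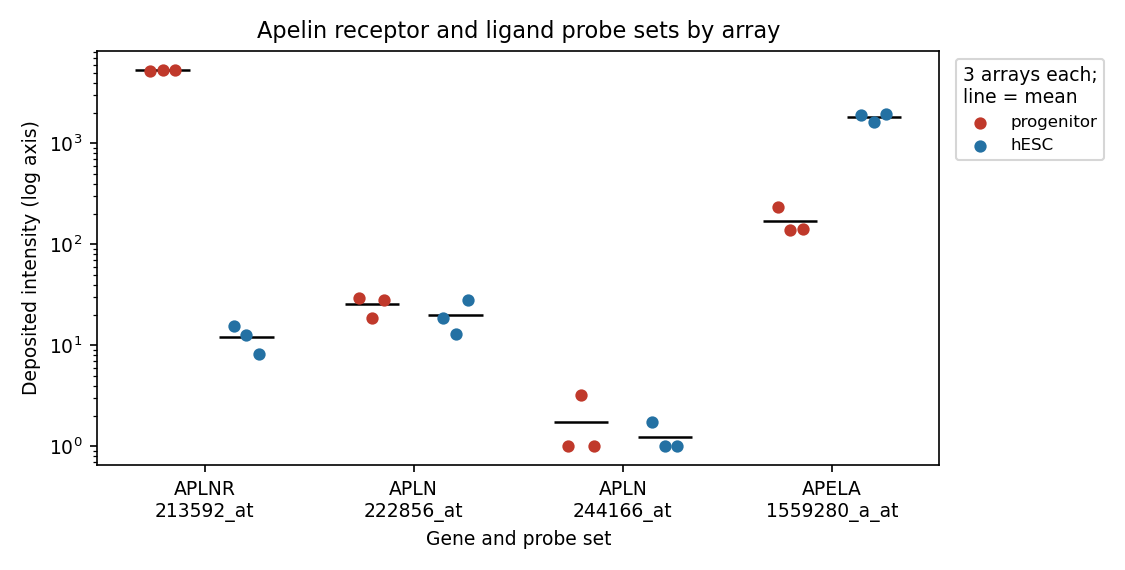
Deposited intensity on a log axis of each probe set of APLNR, APLN and APELA, with a point for each of 3 progenitor and 3 hESC arrays and a line at the mean. APLNR lies at 5248 to 5381 in the progenitors and below 16 in hESC, APELA is higher in hESC, and both APLN probe sets overlap between the groups.

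APLN gave little signal in either group. The brighter of its probe sets had intensities of 29.6, 18.7 and 28.1 on progenitor arrays 1 to 3, against 18.8, 12.96 and 28.1 on hESC arrays 1 to 3. The groups overlapped, since hESC array 3 was about as high as progenitor array 3. The mean was 25.5 ± 5.90 in the progenitors and 19.9 ± 7.61 in hESC (SD, n = 3 each), and the log2 difference was 0.31 (SE 0.23), about as large as the spread within the groups (SD 0.22 in the progenitors and 0.32 in hESC). This probe set exceeded 40.2% to 49.0% of the probe sets on the progenitor arrays and 29.25% to 46.7% on the hESC arrays.

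The other APLN probe set was at the bottom of the scale. It had 1.0, 3.22 and 1.0 on progenitor arrays 1 to 3, against 1.73, 1.0 and 1.0 on hESC arrays 1 to 3. Values of exactly 1 made up 2.15% of the table and have no order among themselves. A change in the apelin transcript was thus not detectable at this signal, which is not to say that the transcript was absent.

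**Figure D2:**
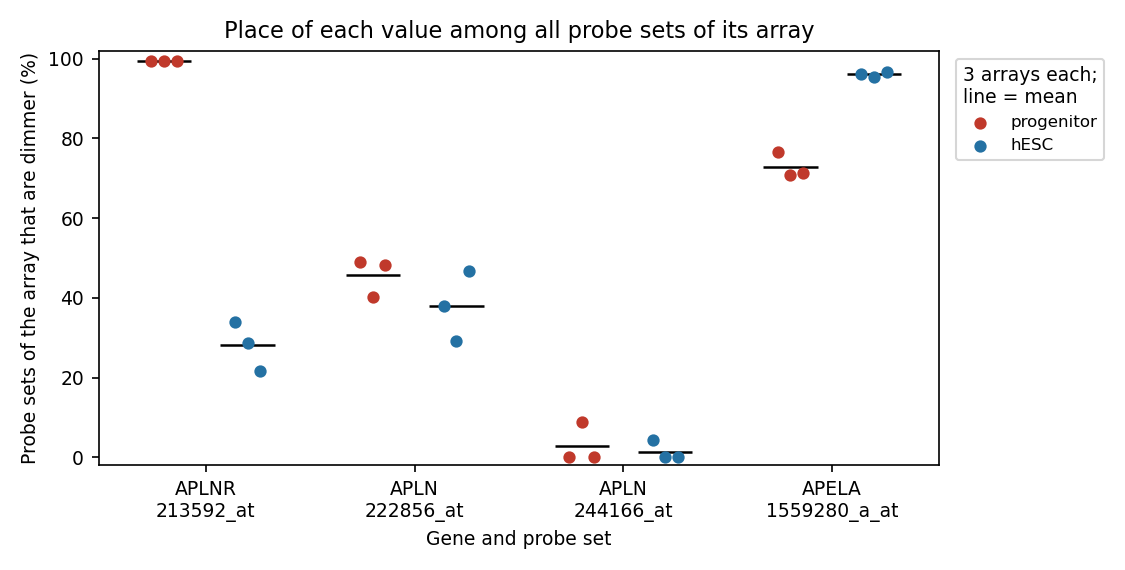
Percent of the 54675 probe sets of the same array that were dimmer than each probe set of APLNR, APLN and APELA, with a point per array and a line at the mean of 3 progenitor or 3 hESC arrays. APLNR stands above 99% on progenitor arrays and at 21.75% to 34.0% on hESC arrays, while neither APLN probe set passes the array median.

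The second ligand ran against the receptor. APELA, measured by 1 probe set, had intensities of 234, 138 and 142 on progenitor arrays 1 to 3, against 1906, 1634 and 1966 on hESC arrays 1 to 3. The groups did not overlap, and every hESC array was above 1600. APELA fell in the progenitors, with a log2 change of -3.31 (SE 0.19, limma adjusted p = 8.88e-06), which left the mean intensity at 171 in the progenitors against 1835 in hESC. Its decrease ranked as number 77 of 19775 genes, as number 127 at a pseudocount of 1 and as number 49 at 64. The probe set still exceeded 70.85% to 76.6% of probe sets on the progenitor arrays, and 95.4% to 96.7% on the hESC arrays. APELA was highest on progenitor array 1, and its change was -3.52 without that array.

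Genes that cleave peptide ligands were changed in both directions. Of 11 measured, 6 rose and 4 fell, where 26.7% of all genes rose and 21.2% fell. The median log2 change was 0.30, against 0.04 over all genes. FURIN, the protease that releases apelin from its precursor, had intensities of 616, 374 and 423 on progenitor arrays 1 to 3, against 85.4, 68.1 and 79.6 on hESC arrays 1 to 3. All progenitor arrays were higher, and FURIN rose by 2.38 (SE 0.19, limma adjusted p = 4.26e-05). Neprilysin (MME), which breaks down small peptides including apelin, rose by 1.42. Plasma kallikrein (KLKB1), which can cleave apelin, changed by -2.41, and the convertase PCSK5 by -1.95, both lower in the progenitors. PCSK7, another convertase, differed by 0.21 without passing (limma adjusted p = 0.176), and another of its probe sets passed in the opposite direction.

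Among the alpha subunits of G proteins, 6 of 11 rose and 3 fell, where 26.7% of all genes rose and 21.2% fell. GNAI1, an inhibitory alpha subunit of the class that APLNR couples to, had 898, 892 and 866 on progenitor arrays 1 to 3, against 138, 127 and 176 on hESC arrays 1 to 3. It rose by 2.50 (SE 0.13, limma adjusted p = 6.29e-06), the largest increase among these subunits. GNAI2, another inhibitory subunit, rose by 1.09, and GNA11, of the class that activates phospholipase C, by 0.48. GNA14, of that same class, fell by 2.14, and GNAZ differed by -0.60 without passing. Without hESC array 3 GNAZ passed at -0.90.

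Of 14 beta and gamma subunits 7 rose, 1 fell and 6 did not pass, to be read against 47.9% of all genes called. The gamma subunit GNG11 had 3214, 1068 and 1134 on progenitor arrays 1 to 3, against 229, 183 and 290 on hESC arrays 1 to 3. It was about 3 times as high on progenitor array 1 as on the others, and it rose by 2.71 (SE 0.41), or by 2.20 without array 1. The other probe set of GNG11 did not pass. GNB4, GNG2 and GNB2 rose by 1.39, 1.21 and 0.92, and GNG12 differed by -0.02 without passing. None of the 3 other probe sets of GNG2 passed.

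The genes that switch such receptors off rose in part. Of 6 measured arrestins and receptor kinases 4 rose and 1 fell, to be read against 26.7% and 21.2% of all genes. GRK5, a kinase that phosphorylates active receptors, rose by 1.89 (SE 0.12), with intensities of 167, 121 and 121 on progenitor arrays 1 to 3, against 25.4, 29.4 and 22.9 on hESC arrays 1 to 3. Of 3 other probe sets of GRK5 only 1 passed. The arrestin ARRB1, which uncouples phosphorylated receptors, rose by 1.76, and GRK6 by 0.50. GRK3 fell by 0.44, a direction that turned, to 0.058, when arrays were scaled on hybridization controls. With the mean of its probe sets GRK3 did not pass, at -0.066. GRK2 differed by -0.24 without passing.

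RGS proteins, which speed the shutdown of G protein signals, included the largest increases around the receptor. Among 20 of them 10 rose and 2 fell, to be read against 26.7% and 21.2% of all genes, and the median was 0.42. RGS13 had 837, 617 and 636 on progenitor arrays 1 to 3, against 3.22, 3.84 and 1.80 on hESC arrays 1 to 3. It rose by 5.25 (SE 0.13, limma adjusted p = 2.09e-07). RGS4 had 1154, 796 and 826 on progenitor arrays 1 to 3, against 8.47, 9.72 and 12.3 on hESC arrays 1 to 3, and rose by 5.21. RGS1 rose by 4.80, at a mean intensity of 531 in the progenitors and 3.60 in hESC. All 3 of these genes were bright in the progenitors and, like APLNR, dim in hESC. RGS5, a regulator known from pericytes, rose by 2.30 and was bright on all arrays, with a mean of 4618 for the progenitors and 957 for hESC. RGS10 differed by 0.24 without passing.

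The enzymes and channels downstream of G proteins showed no common direction. Among 18 of them 3 rose and 3 fell, where 47.9% of all genes were called, and the median was -0.10. The adenylyl cyclases ADCY2 and ADCY1, which make cyclic AMP, fell by 2.13 and 1.25. ADCY2 had 309, 447 and 444 on progenitor arrays 1 to 3, against 1813, 1989 and 1697 on hESC arrays 1 to 3. The phospholipase PLCB1 and the potassium channel subunit KCNJ5 rose by 2.24 and 1.78. Of 5 other probe sets of KCNJ5 only 1 passed, as did only 1 of 4 other probe sets of ADCY1. ADCY9 differed by 0.18 without passing, and another of its probe sets passed in the opposite direction.

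Genes known to respond to or mediate apelin signals in endothelial cells were also split. Among 15 of them 6 rose and 7 fell, to be read against 26.7% and 21.2% of all genes. NOS3, the endothelial nitric oxide synthase, had 172, 85.9 and 88.9 on progenitor arrays 1 to 3, against 9.42, 9.30 and 12.99 on hESC arrays 1 to 3, and rose by 2.28 (SE 0.22). The flow-responsive factor KLF2 had 193, 44.2 and 53.1 on progenitor arrays 1 to 3, against 14.7, 15.0 and 17.7 on hESC arrays 1 to 3. It rose by 1.64 (SE 0.41), a change that was 1.11 without progenitor array 1. Both genes were lower on arrays 2 and 3 of the progenitors than on array 1, but still above every hESC array. Each of them has 1 other probe set, which did not pass. FGF2 fell by 3.13, with a mean intensity of 73.1 in the progenitors and 801 in hESC. The progenitor medium held FGF2 protein, and a link of that protein to the transcript was not tested. The forkhead factor FOXO1 fell by 1.91, and MEF2A differed by 0.33 without passing (limma adjusted p = 0.0637), though it passed under 4 alternatives, among them median centring of the arrays (0.0156).

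Together these 7 lists had 95 measured genes, of which 42 rose, 21 fell and 32 did not pass, to be read against the 47.9% called over all genes. The higher genes made up 66.7% of those called, against 55.8% over all genes. With arrays scaled on hybridization controls, which moved the median of all genes by 0.48, these shares were 83.1% and 87.7%, so the order of the 2 shares turned with the scale. The lists were chosen with earlier results of these data known, and no test of the lists as sets was made.

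**Figure D3:**
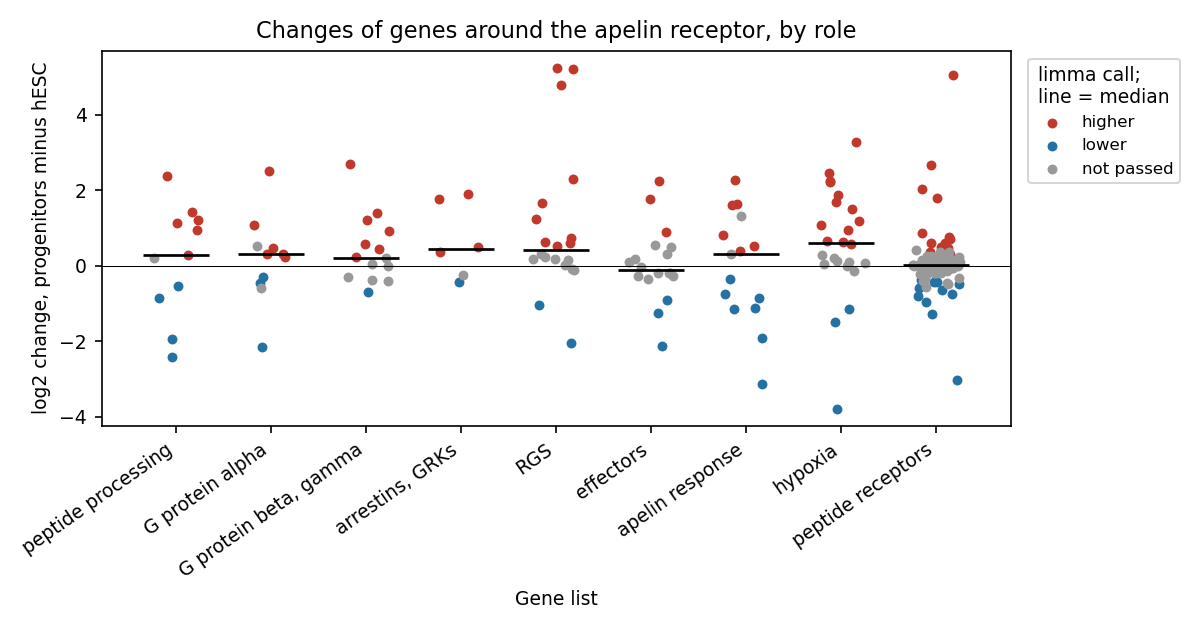
Log2 change, progenitors minus hESC, of each measured gene of the 7 lists around the receptor, of the hypoxia list and of the other peptide receptors, with points coloured by the limma call and a line at each list's median. RGS13, RGS4, RGS1 and, among the receptors, F2RL2 lie highest, and ADM lies lowest.

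Apelin is known as a gene that low oxygen induces, so hypoxia genes were set beside it. Among 24 of them 13 rose and 3 fell, to be read against 26.7% and 21.2% of all genes, and the median was 0.61. EPAS1, which encodes the oxygen-regulated factor HIF-2 alpha, had 629, 845 and 800 on progenitor arrays 1 to 3, against 84.6, 65.2 and 52.7 on hESC arrays 1 to 3. It rose by 3.28 (SE 0.17, limma adjusted p = 5.57e-06), although another of its probe sets passed in the opposite direction. MXI1, a MYC antagonist, and PDK1, a kinase that holds back pyruvate oxidation, rose by 2.46 and 2.24. Adrenomedullin (ADM), another peptide ligand induced by hypoxia, had 157, 176 and 165 on progenitor arrays 1 to 3, against 2447, 2537 and 2613 on hESC arrays 1 to 3. It fell by 3.78 (SE 0.09, limma adjusted p = 1.83e-07). The glucose transporter SLC2A1 (-1.48) and VEGFA (-1.14) were the other genes of the list that fell, named after their values were seen. The other probe set of SLC2A1 did not pass. The glycolytic enzyme ENO1 did not differ detectably, at -0.004. APLN, at a log2 difference of 0.31, lay between the extremes of this list.

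Other receptors of the same kind were set beside APLNR. Among 91 measured receptors for peptides and chemokines it had the largest increase, by the choice of the gene. Of the other 90, 13 rose and 11 fell, which is 24 calls, to be read against 47.9% of all genes. F2RL2, a protease-activated receptor, had 2029, 327 and 372 on progenitor arrays 1 to 3, against 5.74, 2.97 and 2.75 on hESC arrays 1 to 3. It rose by 5.06 (SE 0.63), and by 4.21 without progenitor array 1, where it was over 5 times as high as on the other progenitor arrays. The other probe set of F2RL2 did not pass. MCHR1, the receptor of melanin-concentrating hormone, and NPY1R, a receptor of neuropeptide Y, rose by 2.67 and 2.04. The kisspeptin receptor KISS1R fell by 3.02, at 19.5 in the progenitors against 275 in hESC. The angiotensin receptor AGTR1, a close relative of APLNR, averaged 9.57 in the progenitors and 8.58 in hESC, near the dim end of both. The thrombin receptor F2R differed by -0.57 without passing, but passed at -0.89 without progenitor array 1, and another of its probe sets passed in the opposite direction.

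Genes that lie beside APLNR were compared next. In RefSeq's annotation of GRCh38.p14 APLNR lies on chromosome 11, and of the 5 nearest measured protein-coding genes on each side 2 rose, 0 fell and 8 did not pass, where 47.9% of all genes were called. Most of these neighbours were dim. Without the dimmest 30% of genes 4 of them remained, of which 1 rose, against 8927 called of 13842 genes. The next measured gene on one side, TNKS1BP1, had 418, 359 and 374 on progenitor arrays 1 to 3, against 452, 576 and 388 on hESC arrays 1 to 3, a log2 difference of -0.28 that did not pass. On the other side LRRC55 differed by 0.48 (limma adjusted p = 0.055), and it passed under 6 alternatives, with an adjusted p of 0.0216 without hESC array 1 and 0.032 without progenitor array 2. SSRP1, PRG2, PRG3, P2RX3, OR5I1 and TRIM51 did not pass either, with differences from -0.04 to 0.37. Without hESC array 3, however, TNKS1BP1 passed at -0.39 and PRG2 at 0.56. SSRP1 passed with another variance model in limma. Scaled on hybridization controls, SSRP1, PRG2, PRG3, P2RX3 and TRIM51 passed as higher. The olfactory receptor genes OR5J2 and OR5L2 rose by 0.57 and 0.45, at progenitor means of 24.8 and 41.9 and hESC means of 13.3 and 29.6. OR5J2 did not pass without progenitor array 1 or hESC array 1, nor OR5L2 without progenitor array 3 or hESC array 1. OR5J2 did not pass with the mean of its probe sets either. On the LRRC55 side most genes up to OR5L2 were not measured, since OR5L2 is the 35th protein-coding gene counted from APLNR.

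APLN lies on chromosome X, and among its 10 measured neighbours 3 rose, 3 fell and 4 did not pass, near the 26.7% higher and 21.2% lower of all genes. BCORL1, a transcriptional corepressor, had 362, 307 and 302 on progenitor arrays 1 to 3, against 52.3, 56.6 and 37.6 on hESC arrays 1 to 3, and rose by 2.43 (SE 0.12). One of its other probe sets passed in the opposite direction. OCRL, a phosphatase gene next to APLN, rose by 0.82 and the chromatin remodeler SMARCA1 by 0.63. UTP14A, DCAF12L1 and SASH3 fell, with changes of -0.91, -0.71 and -0.55. The other probe set of UTP14A did not pass. Scaled on hybridization controls, DCAF12L1 and SASH3 did not pass, at -0.18 and -0.14, nor did SASH3 without hESC array 1, at -0.52. XPNPEP2, on the other side of APLN, differed by -0.04 without passing. PRR32, DCAF12L2 and ZDHHC9 did not pass either, at -0.18, 0.22 and -0.22, and another probe set of ZDHHC9 passed in the opposite direction. Without progenitor array 1 ZDHHC9 passed at -0.29. Scaled on hybridization controls, DCAF12L2 passed at 0.63 and XPNPEP2 at 0.40.

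The 8 genes with the profile nearest to that of APLNR were found by their likeness. Likeness was measured over the 6 arrays as the root mean square difference of log2 levels, with each gene centred on its own mean. HAND1, which acts in early heart and lateral plate mesoderm, was nearest, at 0.23. LUM, a matrix proteoglycan, followed at 0.29, BMPER, a BMP-binding protein, at 0.31 and HAPLN1, which links hyaluronan, at 0.32. MSX1 (0.35), HOXB2 (0.45), GATA6 (0.51) and GATA2 (0.62), all transcription factors, completed them. The other probe set of GATA6 did not pass. The measure is ruled by the difference between 2 groups, so it favours genes with an increase of like size. No gene was named for APLN, whose levels spanned 0.77 on the log2 scale, under the limit of 1 that the rule sets.

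**Figure D4:**
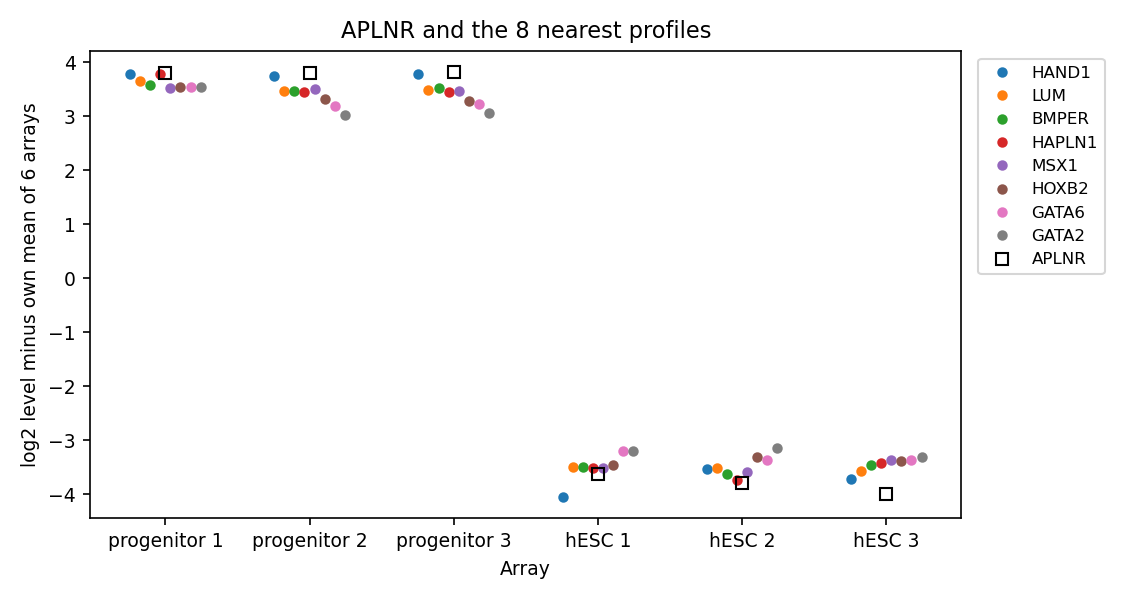
Log2 level on each array minus the gene's own mean over the 6 arrays, for APLNR (open squares) and the 8 genes with the nearest profile (points). All 9 genes lie above 3 on every progenitor array and below -3 on every hESC array.

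Progenitor array 1 was higher than the others in the summed intensity of endothelial, blood and endoderm markers, while APLNR was level on all 3. The level on array 1 exceeded the mean of arrays 2 and 3 for 19 of 22 endothelial markers, against 9628 of 19775 genes, and the median of this difference was 0.35 (log2). Summed over the 22 markers, intensities ranged from 8471 to 14462 on the progenitor arrays and from 4327 to 5102 on the hESC arrays. Summed blood markers reached 3019 on progenitor array 1, against 1587 and 1676 on arrays 2 and 3, and summed endoderm markers 2620, against 1314 and 1262. On the hESC arrays the blood sums ranged from 2824.5 to 4310.2 and the endoderm sums from 484.6 to 564.3. The higher sums on progenitor array 1 followed few genes. The level on that array exceeded the mean of progenitor arrays 2 and 3 for 4 of 9 blood and 5 of 8 endoderm markers. PECAM1, a defining endothelial marker, averaged 47.9 on progenitor arrays against 53.0 on hESC arrays by its brightest probe set. That probe set did not pass, nor did any of its 4 others. VE-cadherin (CDH5) had 1012, 101.5 and 121 on progenitor arrays 1 to 3, against 1.40, 1.90 and 2.38 on hESC arrays 1 to 3. SOX7, an endothelial transcription factor, had 1046, 235 and 257 on progenitor arrays 1 to 3, against 15.0, 21.5 and 20.2 on hESC arrays 1 to 3. CDH5 rose by 3.85 and SOX7 by 3.62, or by 2.85 and 2.94 without progenitor array 1. ANGPT2, the endothelial marker with the largest increase, rose by 4.47, or by 4.24 without that array. Of the 22 markers 10 rose and 0 fell in limma, which left 12 that did not pass, where 47.9% of all genes were called. Without progenitor array 1, 10 rose and 1 fell, and the median was 0.52 in place of 1.00.

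The range of APLNR over the progenitor arrays was 0.03 on the log2 scale. Among 310 genes with a progenitor level within 0.5 of its own the median range was 0.075, and 14.8% had a smaller one than APLNR. Its difference between the groups was 7.62 without progenitor array 1. APELA had a range of 0.65, wider than that of 93.2% of the 2014 genes of like level, and APLN one of 0.40. Of the 95 genes of the lists around the receptor 67 were higher on progenitor array 1, and the median difference was 0.16. Over all genes 9628 of 19775 were higher, and the median was -0.01. The part of array 1 in the results of those lists was not tested beyond leaving it out, which gave 41 genes higher and 21 lower.

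**Figure D5:**
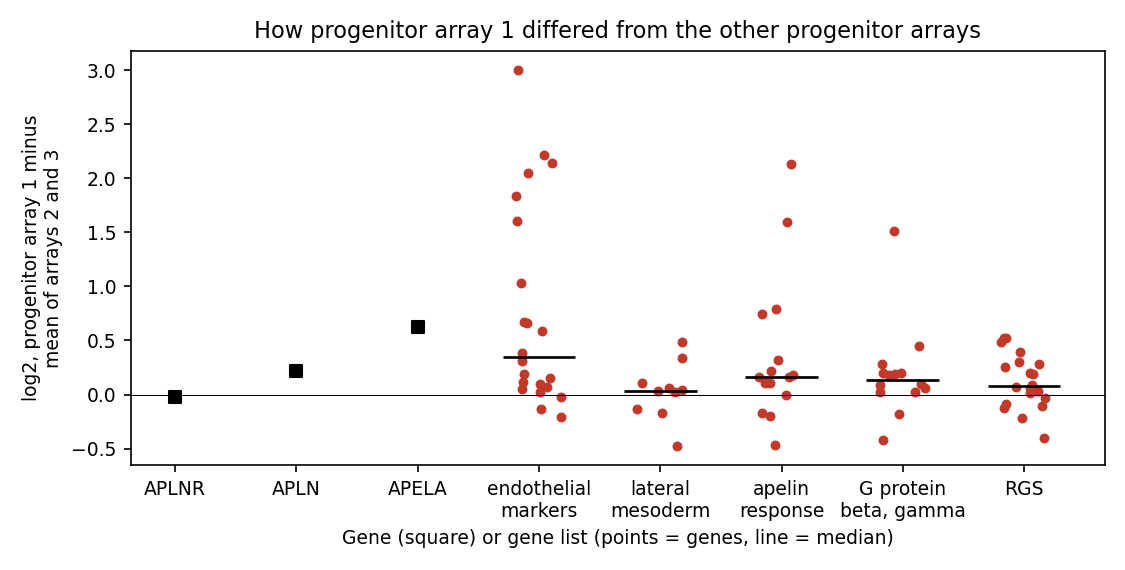
Log2 level on progenitor array 1 minus the mean of progenitor arrays 2 and 3, for APLNR, APLN and APELA (squares) and for genes of 5 lists (points, with a line at the median). APLNR lies at 0, APELA above it, and the endothelial markers reach the highest values.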

How the data were processed

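The authors deposited one intensity per probe set and array on a linear scale, as the values show, for 6 arrays with biotin-labelled cRNA per the labels' protocols. How probes were summarised, corrected and scaled is not stated in the sources used. The annotation gave 1 symbol to 41097 of 54675 probe sets, several to 1801, and did not list 11777. Symbols were updated through the gene identifier for 41043. Intensities were converted to log2(intensity + 16) and quantile-normalized. A gene's value was that of its brightest probe set over all arrays, among those annotated to it alone. Genes other than APLNR and APLN were compared with limma's lmFit and eBayes, version 3.58.1 in R 4.3.3. The test was two-sided, p-values were adjusted by Benjamini-Hochberg across 19775 genes, and genes below 0.05 were called. The p-values reflect how far these arrays differ among themselves, possibly for technical reasons alone, and 3 arrays per group limit the precision. Figures were drawn with matplotlib 3.10.9.

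The members, the lists and all rules were chosen with earlier results of these data known. Genes were named by a rule that covers the 4 largest changes past the threshold and the brightest gene that did not pass in each list around the receptor, in the hypoxia list and in the receptor list, all measured neighbours, the 8 nearest profiles and the 3 largest changes in each marker list, of which only some are given. Others are named after their values were seen, as are AGTR1, PECAM1, SLC2A1 and VEGFA. Alternatives were 3 other scalings, pseudocounts of 1 and 64, the mean of a gene's probe sets, no genes of the dimmest 30%, another variance model in limma, a block for the replicate number, and omission of single arrays. Upstream sequences came from RefSeq tables of GRCh38.p14, which held APLN and APELA.

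Deviations of same-numbered progenitor and hESC arrays from their group means correlated across genes at -0.02, 0.03 and -0.04, so the numbers were not taken to pair the samples.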

Additional observations from a re-analysis of the deposited data

How the results depend on the processing

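The difference of APLNR kept its direction under all alternatives run. It was 8.78 at a pseudocount of 1, 6.16 at 64 and 8.09 when arrays were scaled on hybridization controls, and between 7.52 and 7.70 when single arrays were left out. That of APLN was 0.73 with scaling on hybridization controls and between 0.15 and 0.48 without single arrays. The same scaling, under which the median change of all genes was 0.52, gave 14341 called genes (87.7% of them higher), 68 called peptide receptors, 14 called neighbour genes and 20 called endothelial markers. Without the dimmest 30% of genes 14 of 28 remaining peptide receptors were called, against 8927 of 13842 genes. Leaving out single arrays gave 7909 to 9338 called genes, 55 to 62 in the lists around the receptor, 16 for hypoxia in each case, 20 to 24 peptide receptors, 6 to 10 neighbours and 10 to 12 endothelial markers. With the replicate block 8880 genes were called, and 61 in the lists around the receptor, and it changed no call among the 94 genes that the naming rule covers, not all of which are given. Of those, 67 kept their side of the threshold, and where called their direction, under each of the 15 alternatives that covered them. The alternative without the dimmest 30% of genes covered 86 of the 94. Scaling on hybridization controls turned ENO1 (0.54), GNG12 (0.49), GRK3 (0.058), TRIM51 (0.46) and XPNPEP2 (0.40), and the mean of probe sets turned PCSK7 (-1.05) and ZDHHC9 (0.34). The cause was not tested. Dim signal limits APLN in both groups and APLNR in hESC.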

Other observations

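The RGS genes with the largest increases lie in 2 separate groups of adjacent genes on chromosome 1, a pattern noticed after their values were seen. RGS4 and RGS5 are adjacent among protein-coding genes, and rose by 5.21 and 2.30. RGS1, RGS13 and RGS2 follow each other with 0 protein-coding genes between them, and rose by 4.80, 5.25 and 1.68. RGS2 had a mean intensity of 2527 in the progenitors and 817 in hESC. RGS18, separated from RGS1 by 1 gene, averaged 6.25 in the progenitors and 6.75 in hESC, dim in either group. The adjacent pair RGS16 and RGS8, which lies between these 2 groups of genes, changed by -1.04 and 0.64. Whether the neighbours share a cause was not tested.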
